A study of Mus musculus with 6 samples.

Results

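The 10 genes described here encode the DNA-binding subunits of the transcription factor NF-κB, the IκB proteins that hold it in check, and A20, an enzyme that switches its activation off. They were chosen by symbol (Rela, Rel, Relb, Nfkb1 and Nfkb2 for the subunits, Nfkbia, Nfkbib, Nfkbie and Nfkbiz for the IκB proteins, and Tnfaip3 for A20), and each symbol stood on a single row of the 46072 gene identifiers in the tables. The study gavaged female C57BL/6 mice of 8 to 10 weeks with water (Con group) or with 2 mg of vancomycin per day, given as 2 gavages of 1 mg (Van group). For the sequenced mice of both groups, gavage lasted 6 days and was followed by 8 days of rest without antibiotic, where the general protocol in the labels allows 6 to 8 days. Splenic monocytes were then taken by magnetic negative selection and their messenger RNA was sequenced without stimulation in culture (n = 3 mice per group, 1 library per mouse). The question was whether lowering the Bacteroidota of the gut with vancomycin shifts the transcriptome of monocytes not stimulated in culture. The study examined it with the inhibitors of TLR and NF-κB signaling in view.

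NF-κB factors are dimers of 5 related subunits, which in a resting cell are kept in the cytoplasm by IκB proteins. When a Toll-like receptor is engaged, the IκB kinase marks IκB for destruction, and the released dimers enter the nucleus and switch on inflammatory genes. Among the genes that NF-κB is known to induce are those for its own inhibitors and for several of its own subunits, which makes their transcripts a familiar readout of the pathway in monocytes and macrophages.

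Short sequences from the promoters of these genes are shown here because that feedback runs through κB sites, the DNA elements that NF-κB dimers bind. RefSeq promoters (GRCm38.p6, 250 bases before to 50 bases after a transcription start) were held for 7 of the 10 genes, and not for Relb, Nfkb1 and Nfkbiz. The 10-base κB consensus was searched by letter on both strands, where a palindromic match counts on both and shifted matches may overlap. It was found in 5 of the 7 genes and in 7 of their 10 promoters, against 8.46% of all 32851 promoters of the same length. No match was found for Rela and Nfkbib, which says only that these letters are not in that window. The match is in capitals, read in the direction of the gene, with 10 bases on each side.
Rel, chr11:23771042-23771071, minus strand: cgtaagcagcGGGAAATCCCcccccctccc
Nfkb2, chr19:46304688-46304717, plus strand: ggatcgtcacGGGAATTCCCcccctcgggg
Nfkb2, chr19:46304716-46304745, plus strand: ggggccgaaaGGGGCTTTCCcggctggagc
Nfkb2, chr19:46305695-46305724, plus strand: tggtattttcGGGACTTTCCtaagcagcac
Nfkbia, chr12:55492657-55492686, minus strand: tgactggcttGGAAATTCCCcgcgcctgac
Nfkbie, chr17:45555584-45555613, plus strand: gcagcaaacaGGGGGATTCCggaggggcgg
Tnfaip3, chr10:19015403-19015432, minus strand: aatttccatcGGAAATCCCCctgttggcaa
The match began 29 bases before the start in Nfkbia, 12 bases before it in Tnfaip3, 92 in Rel and 106 in Nfkbie. The Nfkb2 matches shown began 39 and 11 bases before the first listed start, and at base 11 after a later start. Not shown are a match 236 bases before that later start of Nfkb2, a match 125 bases before the start of Tnfaip3, and matches in Rel and Nfkb2 that are shifted by 1 base from those above.

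The total of estimated counts was between 43383919 and 61834407 per library. Each of the 10 genes had between 2691 and 48034 counts in every library, so that counting error was small beside the spread between mice. These counts lie on a scale above that of sequenced fragments, as given with the processing. Monocyte genes were abundant throughout, with a sum over 12 markers of 25928 to 26697 CPM (counts scaled to the size of the library) in Con and 25516 to 25840 CPM in Van. The 2 ranges did not overlap, and Ccr2 and Fcgr1 were called lower in Van, which here means an edgeR adjusted p of 0.05 or less. Lyz2 alone gave 9754 to 12694 CPM of the sum, which hides changes of other markers. Ccr2 was at 680 to 757 CPM in Con and 316 to 473 CPM in Van. The groups overlapped for Ly6c2 (359 to 404 CPM in Con, 262 to 377 CPM in Van) and for Csf1r (2985 to 3276 CPM in Con, 3039 to 3619 CPM in Van). The sum over 9 neutrophil markers was 41.5 to 65.5 CPM in Con and 35.9 to 92.5 CPM in Van, with 5 of the 9 above 1 CPM on average and Ly6g at 0 in every library. The sum over 9 T cell markers was 42.1 to 56.3 CPM in Con and 32.7 to 44.8 CPM in Van, with 2 of the 9 above 1 CPM on average. The sum over 8 B cell markers was 20.8 to 26.2 CPM in Con and 16.7 to 19.9 CPM in Van, which did not overlap. The sum over 9 dendritic cell markers was 209 to 270 CPM in Con and 186 to 219 CPM in Van, and 1 of them, Clec9a, was called lower in Van. The sum over 9 red pulp macrophage markers was 3447 to 4064 CPM in Con and 4034 to 5167 CPM in Van, and that over 9 erythroid markers 84.7 to 172 CPM in Con and 285 to 626 CPM in Van, with 5 erythroid genes called higher in Van. The part of these other cells in the values below was not tested, and in bulk samples fewer cells of a type cannot be told apart from less RNA per cell.

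All 10 genes were expressed at high levels in these libraries of splenic monocytes not stimulated in culture. On the FPKM scale, which is per transcript length and so allows genes to be compared, their means over the 6 libraries lay above 86.7% to 98.0% of the genes tested. Nfkbia, which encodes IκBα, the main inhibitor and the fastest to be remade, was the most abundant at 188 FPKM and was higher than the next gene in all 6 libraries. Nfkb1, the precursor of the DNA-binding partner of RelA, followed at 110 FPKM, then Tnfaip3 at 102, Nfkbiz at 92.4, Rel at 75.6, Nfkb2 at 57.7, Rela at 41.3, Nfkbib at 34.8, Nfkbie at 32.2 and Relb at 31.8. Neighbours from Nfkb1 to Nfkb2 in this order did not keep their places, since each was above the next in only 3 or 4 of the 6 libraries. Nfkb2 stood above Rela and Rela above Nfkbib in all 6 libraries. Nfkbie stood above Relb in 3 of 6, with a mean log2 ratio of 0.01 ± 0.10 (SD, n = 6 libraries).

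The differences between Van and Con mice did not pass the test for any of the 10 genes. By the quasi-likelihood test of edgeR, adjusted by Benjamini-Hochberg over the 16138 identifiers tested, 0 of the 10 genes reached an adjusted p of 0.05 or less, against 2.00% of identifiers. With DESeq2's Wald test, the test named in the study's methods, the number was also 0, where 7.36% of identifiers passed, and limma on log2(FPKM + 1) called 0 where it called 0.249% of identifiers in all. At an unadjusted p under 0.05 in edgeR there was 1 gene, Nfkbiz, against 16.5% of all identifiers. The CPM values of the groups overlapped for all 10 genes, where they did not overlap for 22.5% of identifiers. Of the 10 genes, 6 had a positive and 4 a negative log2 fold change, with a median of 0.03 against -0.0014 over all identifiers tested. The count became 1 in the fit without Van replicate 1, in which Rel passed.

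**Figure D1:**
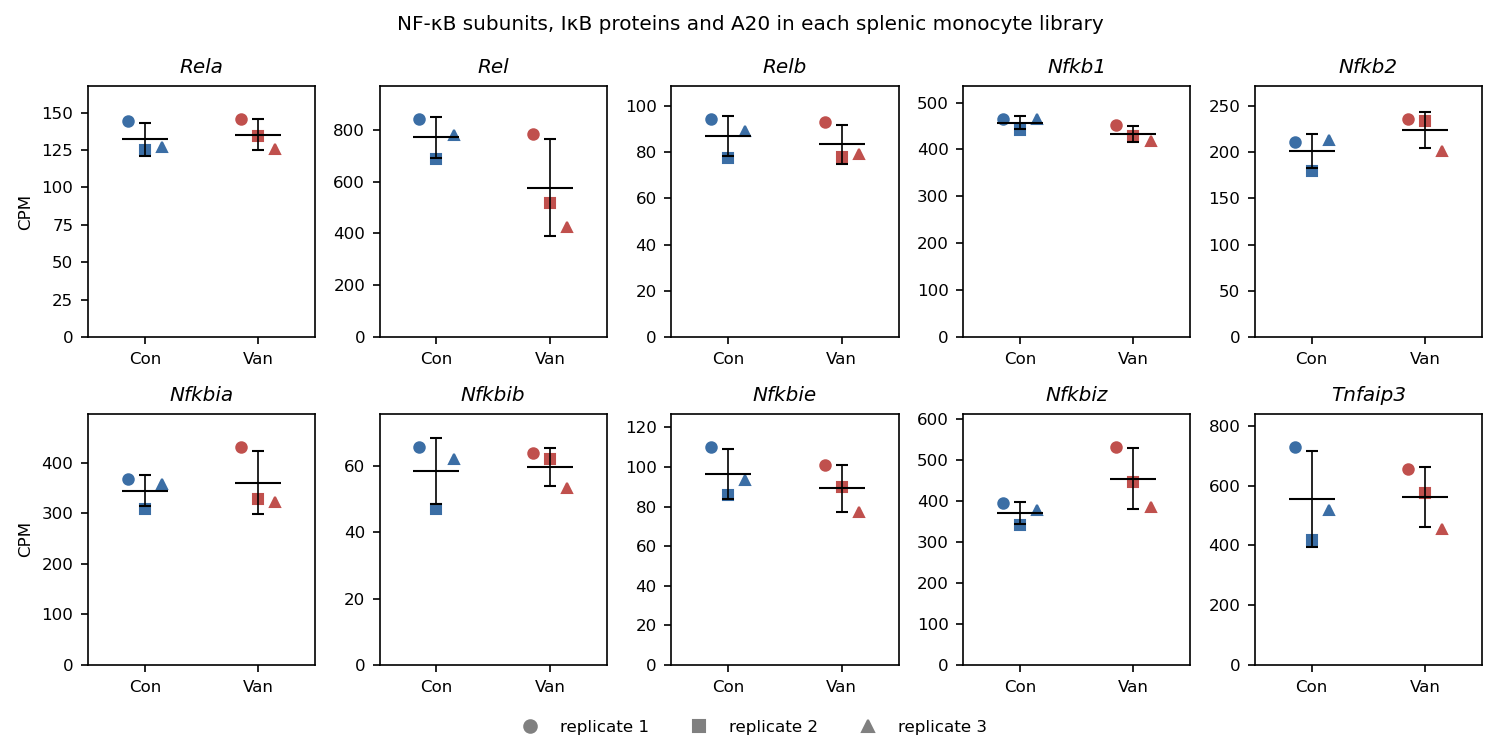
CPM of each gene (vertical axes, starting at 0) in the 3 Con and 3 Van libraries, with the shape of a point giving the replicate number and the black bars the mean ± SD of n = 3 mice. The groups overlapped for every gene, Rel was at 518 and 424 CPM in Van replicates 2 and 3, and the circle of Van replicate 1 was the highest Van point in each panel.

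**Figure D2:**
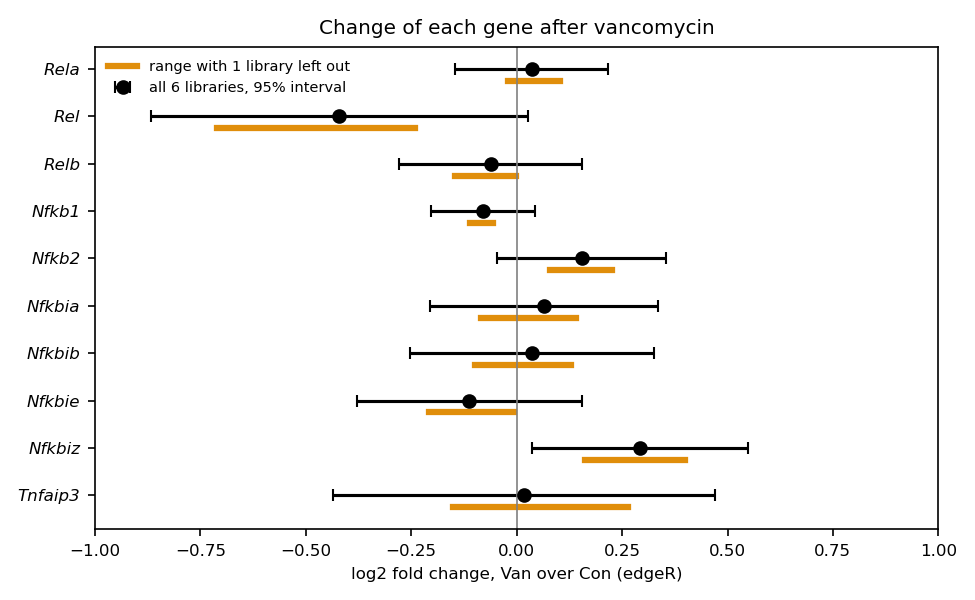
Log2 fold change of each gene in Van over Con from edgeR (points) with its 95% interval (black bars), and the range of the estimate when each library was left out in turn (orange). The interval of Nfkbiz, from 0.04 to 0.55 before adjustment for many genes, was the only interval that did not include 0.

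Among the subunits, Rel showed the widest difference. Rel encodes c-Rel, the subunit of lymphoid and myeloid cells that is known for driving interleukin-12 family genes, and lies on chromosome 11 of GRCm38 from 23736847 to 23770970. It was at 842, 688 and 782 CPM in Con mice (replicates 1, 2 and 3, an order kept throughout) against 785, 518 and 424 CPM in Van mice. Van replicate 1 thus lay within the Con range, while Van replicates 2 and 3 lay below every Con mouse. The log2 fold change was -0.42 (standard error, SE, 0.20, 95% interval -0.87 to 0.03, edgeR adjusted p = 0.334). Permuting the CPM of the mice in an exact test, two-sided, gave p = 0.3, where 0.1 is the smallest value that 3 mice against 3 allow. Without Van replicate 1 it was -0.71 (SE 0.11, edgeR adjusted p = 0.0435, in a fit that called 0.698% of identifiers). The other fits that left out a mouse gave between -0.50 and -0.24, with adjusted p-values from edgeR of 0.376 to 0.612.

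The other 4 subunits stayed within narrower limits. Rela, on chromosome 19 from 5637483 to 5648130, encodes the strongly activating subunit RelA, which pairs with the product of Nfkb1. It was at 144, 125 and 127 CPM in Con mice against 146, 134 and 126 CPM in Van mice, with a log2 fold change of 0.04 (95% interval -0.15 to 0.22, edgeR adjusted p = 0.883). The 2 sets of mice covered almost the same range. Nfkb1, on chromosome 3 from 135584655 to 135691547, was at 465, 441 and 465 CPM in Con mice against 451, 428 and 418 CPM in Van mice. Van replicates 2 and 3 were below every Con mouse and Van replicate 1 was within their range. Its log2 fold change of -0.08 had the smallest standard error of the 10 genes (0.05, 95% interval -0.20 to 0.04, edgeR adjusted p = 0.531), so that a fall to below 0.868 of the Con level lies outside its interval.

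Relb and Nfkb2 encode the dimer of the alternative NF-κB pathway, which signals downstream of receptors such as CD40 and RANK. Relb, on chromosome 7 from 19606217 to 19629438, was at 94.4, 77.6 and 89.0 CPM in Con mice against 92.9, 78.1 and 79.1 CPM in Van mice (log2 fold change -0.06, edgeR adjusted p = 0.821), and all Van mice lay within the Con range. Nfkb2, on chromosome 19 from 46304320 to 46312385, was at 211, 179 and 212 CPM in Con mice against 236, 234 and 201 CPM in Van mice. Van replicates 1 and 2 were above every Con mouse and Van replicate 3 was within the Con range, and the log2 fold change of 0.15 did not pass the test (SE 0.09, 95% interval -0.05 to 0.36, edgeR adjusted p = 0.433). Exons of Nfkb2 overlap those of Psd on the opposite strand, which was at 14.6 CPM or more in every library, and the sources used here do not say whether the counting used the strand.

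As shares of the summed FPKM of the 5 subunits, Rel made up 27.1%, 25.4% and 26.5% in Con and 25.4%, 19.5% and 17.6% in Van. Van replicate 1 was at the lower edge of the Con range and the other Van mice were below it. The share of Nfkb2 was 16.4%, 15.9% and 17.5% in Con and 18.4%, 21.3% and 20.3% in Van. The share of Rela was 12.4% ± 0.528 in Con mice and 13.7% ± 0.706 in Van mice (SD, n = 3 mice each). Neither of these shares overlapped between the groups. Nfkb1 held the largest share in every library, with a mean of 34.8% in Con and 35.1% in Van. The ratio of Rel to Rela FPKM was 2.12, 2.00 and 2.24 in Con and 1.96, 1.40 and 1.23 in Van. These shares and ratios are descriptions, since a lower Rel raises the share of every other subunit by construction.

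**Figure D3:**
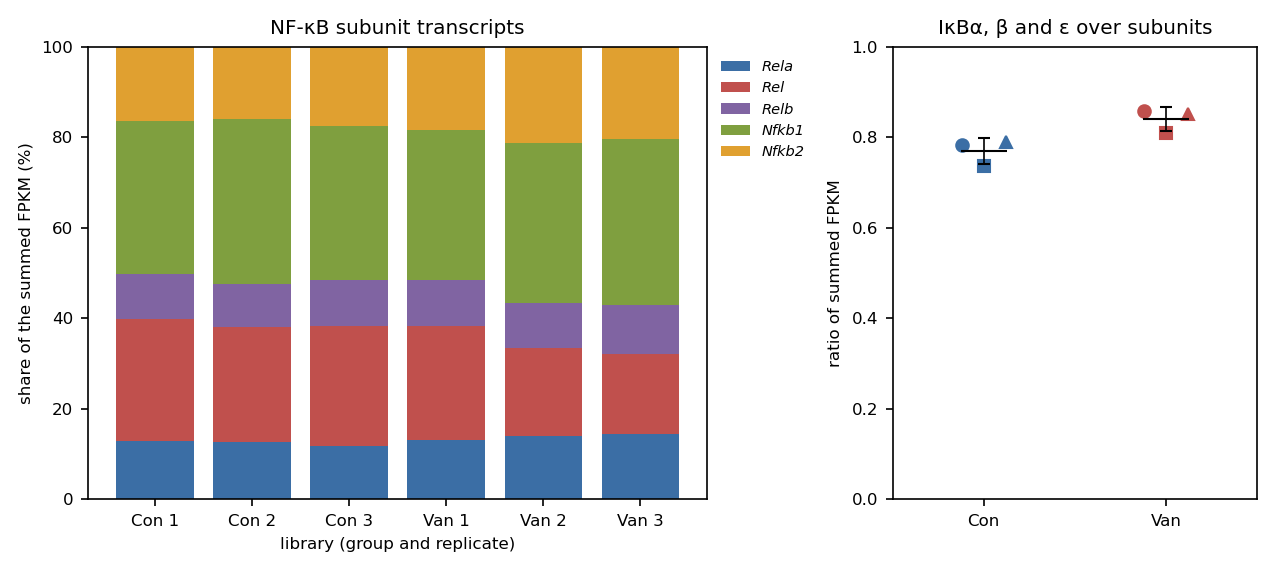
Left, share of each of the 5 subunits in their summed FPKM (%) per library, in which the Rel share was 25.4% in Van replicate 1 and 19.5% and 17.6% in the other Van mice. Right, ratio of the summed FPKM of Nfkbia, Nfkbib and Nfkbie to that of the subunits per mouse, with mean ± SD of n = 3 mice (0.770 ± 0.0281 in Con and 0.840 ± 0.0266 in Van).

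Of the IκB proteins, Nfkbiz had the smallest p-value of all 10 genes. Nfkbiz, on chromosome 16 from 55811375 to 55838899, encodes IκBζ, a nuclear IκB protein that is induced by TLR signaling and is needed for late genes such as Il6. It was at 395, 341 and 378 CPM in Con mice against 533, 446 and 385 CPM in Van mice. Van replicates 1 and 2 were above all Con mice, and Van replicate 3 lay within the Con range. The log2 fold change was 0.29 (SE 0.11, 95% interval 0.04 to 0.55), with an unadjusted p of 0.0302 and an adjusted p of 0.245 from edgeR. The adjusted p was 0.0977 with DESeq2 and went from 0.135 to 0.462 with a mouse left out in edgeR. The estimate was 0.16 without Van replicate 1 and 0.40 without Van replicate 3.

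The cytoplasmic inhibitors showed small differences. Nfkbia, on chromosome 12 from 55489410 to 55492647, was at 368, 310 and 358 CPM in Con mice against 432, 328 and 322 CPM in Van mice. Van replicate 1 alone was above the Con mice, and the log2 fold change was 0.06 (SE 0.12, 95% interval -0.21 to 0.33, edgeR adjusted p = 0.854), which became -0.09 without that mouse. Nfkbib, on chromosome 7 from 28758251 to 28767512, encodes IκBβ, which is degraded and remade more slowly than IκBα. It was at 65.9, 47.1 and 62.2 CPM in Con mice against 64.1, 62.1 and 53.3 CPM in Van mice (log2 fold change 0.04, edgeR adjusted p = 0.931), and the Van mice lay within the Con range. On the FPKM scale its sign was the opposite, with 35.9 ± 5.31 in Con and 33.8 ± 2.53 in Van (SD, n = 3 mice each), and its exons overlap those of Sirt2 on the opposite strand, at 85.2 to 97.3 CPM. Nfkbie, on chromosome 17 from 45555703 to 45563169, encodes IκBε, an inhibitor that favours dimers with c-Rel. It was at 110, 85.8 and 93.3 CPM in Con mice against 101, 89.8 and 77.2 CPM in Van mice (log2 fold change -0.11, 95% interval -0.38 to 0.16, edgeR adjusted p = 0.712). Van replicate 3 alone was below the Con mice.

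Tnfaip3, on chromosome 10 from 19000910 to 19015657, encodes A20, which edits the ubiquitin chains that carry the signal from receptors to the IκB kinase. It was at 731, 418 and 518 CPM in Con mice against 656, 577 and 454 CPM in Van mice. The Con mice alone spanned 1.75-fold, the widest range of any of the 10 genes within Con, and enclosed all 3 Van mice. The log2 fold change was 0.02 (SE 0.20, 95% interval -0.44 to 0.47, edgeR adjusted p = 0.977). With such a spread between mice, any Van level between 0.739 and 1.39 of the Con level lay within the interval, and the sign turned in 3 of the 6 fits that left out a mouse.

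The balance of inhibitor to subunit transcripts was described as the summed FPKM of Nfkbia, Nfkbib and Nfkbie over that of the 5 subunits. It was 0.783, 0.738 and 0.789 in Con and 0.857, 0.809 and 0.853 in Van, so that each Van mouse was above each Con mouse. Each subunit was left out of the sum in turn, but no inhibitor was, so the separation cannot be assigned to a single gene. With Rel left out of the subunit sum, an alternative added after the values were seen, the ratio was 1.075, 0.989 and 1.074 in Con and 1.1496, 1.005 and 1.035 in Van, and the groups overlapped. Van replicate 1 alone stayed above every Con mouse without Rel. Its Nfkbia was at 229 FPKM, against 193, 163 and 193 FPKM in Con. With any other of the 5 subunits left out, the groups did not overlap. The sum for the subunits alone was 344, 301 and 336 FPKM in Con and 345, 305 and 269 FPKM in Van. With Nfkbiz and Tnfaip3 added to the inhibitors, the ratio was 1.42, 1.22 and 1.32 in Con and 1.56, 1.52 and 1.46 in Van, again with each Van mouse above each Con mouse. No p-value is given, since the ratio is a score over genes chosen with earlier results in view.

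The 10 genes varied together from mouse to mouse within a group. Among the Con mice, replicate 2 was the lowest for all 10 genes, and replicate 1 was the highest for 8 and replicate 3 for 2. Among the Van mice, replicate 1 was the highest for all 10 genes and replicate 3 the lowest for 9, with Relb lowest in replicate 2. Over all identifiers tested, Con replicate 2 was the lowest Con mouse for 32.4%, Van replicate 1 the highest Van mouse for 34.6%, and both held for 14.8%. The range within a group went from 1.06-fold for Nfkb1 in Con to 1.85-fold for Rel in Van.

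**Figure D4:**
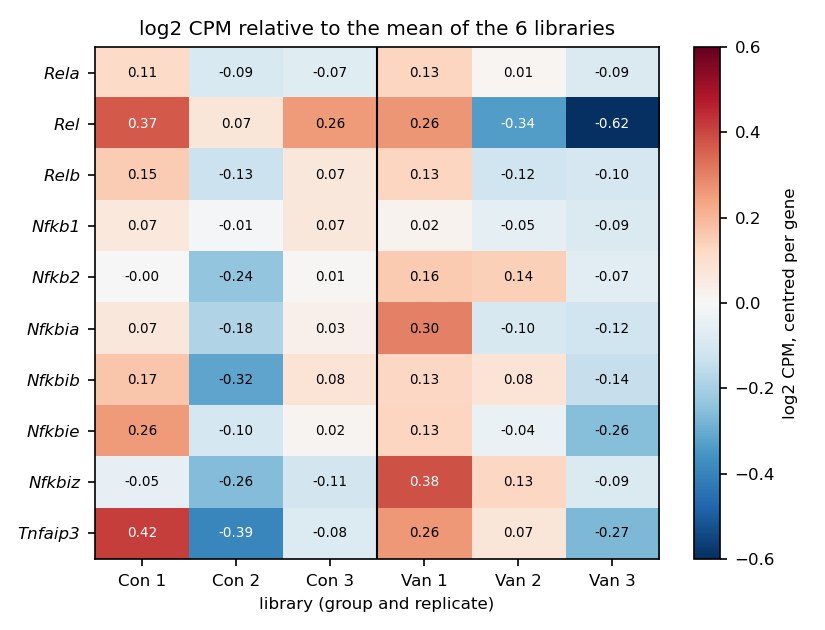
Log2 CPM of each gene (rows) in each library (columns) relative to its mean over the 6 libraries, with the value printed in each cell and red for higher. Con replicate 2 is the lowest Con column and Van replicate 1 the highest Van column in every row, and Rel in Van replicate 3 is the lowest cell at -0.62.

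Many NF-κB target genes had the same order of mice, which was looked for after the order in the 10 genes had been seen. Of 37 target genes tested, 18 were lowest in Con replicate 2 among Con mice and highest in Van replicate 1 among Van mice, among them Tnf, Il1b, Cd83, Traf1 and Sod2. The 18 include Bcl2a1a, Bcl2a1b and Bcl2a1d, near-identical copies that the counting could have split, so they are not separate evidence. Over all 8 lists this order was found for 40 of 116 genes, against 14.8% of all identifiers. By list it held for 5 of 9 genes of the alternative pathway, 5 of 12 A20 partners and deubiquitinases, 3 of 8 genes for IκB ubiquitination and degradation, 3 of 12 of the IκB kinase list, 1 of 5 of linear ubiquitin assembly, 2 of 13 other IκB family genes and nuclear regulators, and 3 of 21 immediate early genes such as Fos and Egr1. The summed CPM of the immediate early genes was 16702, 20606 and 17947 in Con and 18969, 18398 and 19685 in Van, and its part in the pattern was not tested. Of the markers of other cells, the order held for 0 of 9 red pulp macrophage, 0 of 9 erythroid, 0 of 8 B cell and 0 of 7 neutrophil genes, for 3 of 12 monocyte, 2 of 9 T cell and 1 of 4 NK cell genes, and for 4 of 9 dendritic cell and 3 of 6 platelet genes. Within their groups, 3 of the marker sums were lowest in Con replicate 2 and highest in Van replicate 1. These were the dendritic cell sum (270, 209 and 224 CPM in Con, 219, 208 and 186 CPM in Van), the platelet sum (28.2, 16.2 and 33.03 CPM in Con, 19.3, 18.4 and 13.9 CPM in Van) and the NK cell sum (7.15, 5.20 and 6.63 CPM in Con, 5.72, 4.98 and 3.87 CPM in Van). Of the 7 NK cell markers, 1 was above 1 CPM on average, so that sum is near the floor. The part of these 3 sums in the pattern was not tested.

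By the root mean square difference of centred log2 CPM over the 6 libraries, the genes most like Nfkbia were Gp49a (0.0393), Bcl2a1b (0.0407) and Chd7 (0.0460), where the median over all genes of at least 10 CPM was 0.191. Bcl2a1b encodes a survival factor known as an NF-κB target, and it belongs to a family of near-identical copies that the counting could have split. Among the genes most like Tnfaip3 were Il1rn (0.0937), which encodes the interleukin-1 receptor antagonist, and Tgif1 (0.0957), against a median of 0.302. Nfkb1 was most like Khnyn (0.0113), Cic (0.0153) and Pfkp (0.0185), against a median of 0.121. These names are a description over 6 libraries, with no test.

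How many other genes of the pathway were called depended on the test. Over 8 lists of pathway, target and immediate early genes with 116 genes tested, edgeR called 2 (1.72%), 1 lower and 1 higher in Van, against 2.00% of all identifiers. DESeq2 called 13 of the 115 that it gave an adjusted p (11.3%), 6 higher and 7 lower, against 7.36% of identifiers. Tnfrsf11a, which encodes RANK, a receptor of the alternative pathway, fell from a mean of 22.1 ± 0.739 CPM in Con mice to 17.0 ± 0.916 CPM in Van mice (± SD, n = 3 per group). Its log2 fold change was -0.38 (SE 0.08, edgeR adjusted p = 0.0471). Clec4e, which encodes the lectin receptor Mincle, rose from 154 ± 17.6 to 240 ± 37.3 CPM, with a log2 fold change of 0.64 (SE 0.12, edgeR adjusted p = 0.0379). Each had an adjusted p above 0.05 in all 6 edgeR fits that left out a mouse, of at least 0.0996 for Tnfrsf11a and 0.0615 for Clec4e, while the log2 fold changes were -0.41 to -0.34 and 0.51 to 0.74. With all 6 mice, the call of Tnfrsf11a was also lost without a filter on low counts (edgeR adjusted p = 0.0581) and in both limma fits (0.239 and 0.228), and that of Clec4e with limma on log2(FPKM + 1) (0.0591). With the replicate number as a block, both calls were lost (edgeR adjusted p = 0.108 for Tnfrsf11a and 0.0898 for Clec4e). Cd40, a receptor of the alternative pathway, was at 32.1 ± 4.34 CPM in Con mice against 21.5 ± 2.95 CPM in Van mice (log2 fold change -0.58, edgeR adjusted p = 0.0609, DESeq2 adjusted p = 0.00140).

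**Figure D5:**
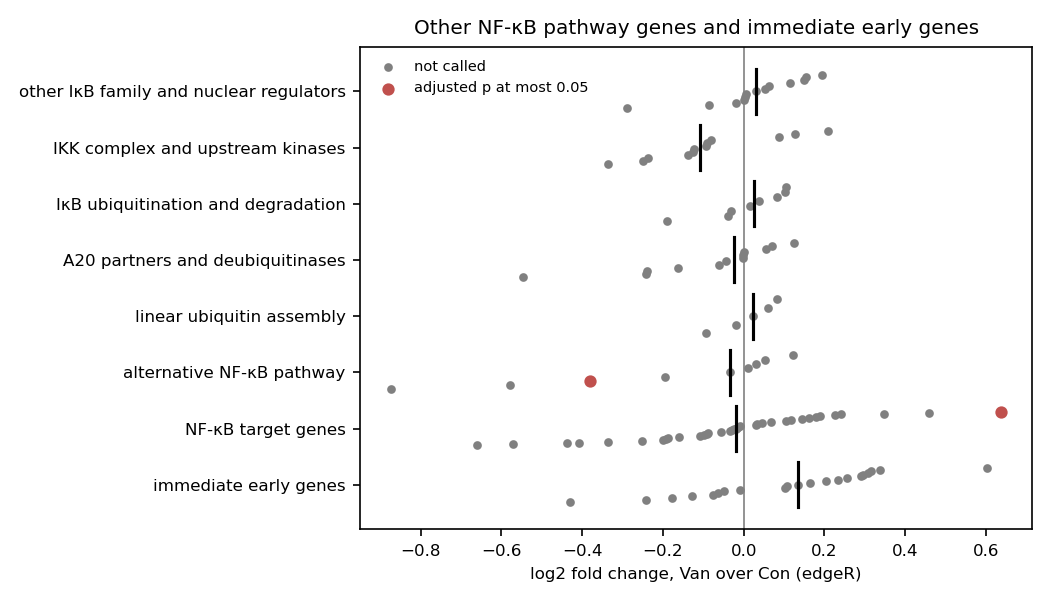
Log2 fold change in Van over Con of each tested gene (points) of 8 gene lists, with the median of each list as a black line and the 2 genes called by edgeR in red. The medians lay between -0.11 and 0.13.

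Of the IκB kinase complex and its upstream kinases, 9 of 12 genes had a negative log2 fold change, with a median of -0.11, and 0 were called. The unadjusted p was under 0.05 for 4 of the 12, all lower in Van, where 16.5% of identifiers were under it, 1351 of them higher and 1313 lower. Ikbkg, the scaffold of the kinase complex, was at 44.0 ± 2.07 CPM in Con mice against 37.1 ± 1.32 CPM in Van mice (SD, n = 3 mice each, log2 fold change -0.25, edgeR adjusted p = 0.101, DESeq2 adjusted p = 0.0384). The catalytic subunits differed less, with log2 fold changes of -0.14 for Chuk and 0.09 for Ikbkb (adjusted p = 0.396 and 0.490 from edgeR). The related kinase gene Ikbke was at 56.1 ± 8.59 CPM in Con mice against 44.5 ± 3.41 CPM in Van mice (log2 fold change -0.33, edgeR adjusted p = 0.191).

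Of 12 A20 partners and deubiquitinases, 0 were called, 3 had an unadjusted p under 0.05, against 16.5% of identifiers, and all 3 of these were lower in Van. Cyld, a deubiquitinase that removes the chains on which IKK activation depends, was at 130 ± 4.17 CPM in Con mice against 111 ± 3.17 CPM in Van mice (log2 fold change -0.24, edgeR adjusted p = 0.0715, DESeq2 adjusted p = 0.00624). The A20-binding inhibitor gene Tnip3 was at 6.91 ± 0.615 CPM in Con mice against 4.73 ± 1.28 CPM in Van mice (log2 fold change -0.55, edgeR adjusted p = 0.227). The members of the A20 editing complex had log2 fold changes of -0.24 (Itch), -0.04 (Rnf11) and -0.00099 (Tax1bp1), and the A20 adaptor gene Tnip1 one of 0.12, with adjusted p-values from edgeR of 0.345, 0.878, 0.997 and 0.536. Rnf31 and Sharpin of the linear ubiquitin assembly complex were at 0.08 and -0.09, with 0 of the 5 genes of that list called and 0 at an unadjusted p under 0.05.

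Among 13 other IκB family genes and nuclear regulators, 0 were called and 2 had an unadjusted p under 0.05, against 2.00% and 16.5% of identifiers. Pdlim2, a ubiquitin ligase gene whose product ends the activity of nuclear RelA, was at 32.9 ± 0.537 CPM in Con mice against 26.9 ± 1.36 CPM in Van mice (SD, n = 3 mice each, log2 fold change -0.29, edgeR adjusted p = 0.0715, DESeq2 adjusted p = 0.0191). Ppp4c, a phosphatase subunit gene, was at 104 ± 2.16 and 115 ± 2.11 CPM (edgeR adjusted p = 0.207). The nuclear IκB genes other than Nfkbiz had log2 fold changes of 0.00095 (Bcl3) and 0.19 (Nfkbid), with adjusted p-values from edgeR of 0.998 and 0.666. Of the 8 genes for IκB ubiquitination and degradation, 0 were called and 1 had an unadjusted p under 0.05, against the same shares of identifiers. This was Fbxw11, which encodes a receptor of the ligase that marks IκB, at 94.8 ± 1.79 CPM in Con mice against 83.1 ± 4.18 CPM in Van mice (log2 fold change -0.19, edgeR adjusted p = 0.158), and Skp1a of the same ligase had a log2 fold change of 0.11.

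The targets of NF-κB were mixed in direction, with 15 of 37 genes higher and 22 lower in Van and a median log2 fold change of -0.02. The cytokine genes had log2 fold changes of 0.07 (Tnf), -0.25 (Il6) and -0.19 (Il1b), with adjusted p-values from edgeR of 0.938, 0.834 and 0.527. Il1a was at 9.51 ± 0.960 CPM in Con mice against 6.02 ± 0.749 CPM in Van mice (SD, n = 3 mice each, log2 fold change -0.66, edgeR adjusted p = 0.0508, DESeq2 adjusted p = 0.00316). Of 21 immediate early genes, 0 were called by edgeR, while 9 had an unadjusted p under 0.05 and all 9 were higher in Van, against 16.5% of identifiers in either direction. Ier2 had a log2 fold change of 0.23 and Jund of 0.34, each with an adjusted p above 0.05 from edgeR (0.0727 and 0.0769) and below it from DESeq2 (0.00398 and 0.00411).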

How the data were processed

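Messenger RNA of splenic monocytes was measured in 6 libraries, grouped by the treatment label. The authors aligned the reads to GRCm38 with HISAT2 2.2.1, estimated FPKM with StringTie 2.1.3 and Ballgown, and made the deposited estimated counts from them with tximport 1.26.1. The values of these counts match a read length of 75 bases, shorter than the paired reads named in the paper. They are therefore taken to exceed the number of fragments, and the fragment scale among the alternatives rescales them for this. The paper's text points to a different deposit, so its groups and these libraries were linked through their treatments. The paper names a stranded library kit. The annotation release, and whether the counting used the strand, are not given in the sources used here.

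Estimated counts were rounded and tested in R 4.3.3 with edgeR 4.0.16 (TMM, expression filter at a minimum count of 10, quasi-likelihood test, group as the only term, Benjamini-Hochberg adjustment over all identifiers). The tests were checked on simulated data, drawn with the spread that edgeR had fitted, which may favour edgeR. There DESeq2 made more false calls than edgeR, also as a share of its calls, but recovered more of the changed genes. The limma fit made the fewest false calls and recovered the fewest changed genes. The standard error is the log2 fold change over the square root of its F. CPM uses TMM library sizes. FPKM was used as deposited by the authors. Alternatives were DESeq2 1.42.0, limma 3.58.1 on quantile-normalized log2 FPKM, other scalings and filters, the replicate number as a block, and each library left out. Libraries of a group differed by more than counting noise (chi-square of 20.5 to 42.8 per gene). This value was computed on the estimated counts, whose scale above that of fragments raises it. Coordinates are from GENCODE M21 and promoters from RefSeq.

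The genes and lists were chosen with earlier results of these data known. The genes named are the 10 genes, called genes of the lists, the 2 of each list with the smallest p (the rule allowed up to 4), a few fixed by role, and the 3 most like Nfkb1, Nfkbia and Tnfaip3 in pattern. Some items that these rules name are not reported here. Target genes named for their order of mice were chosen after values were seen.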

Additional observations from a re-analysis of the deposited data

How the results depend on the processing

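The number of the 10 genes called stayed at 0 under every alternative that kept all 6 mice, and leaving out a mouse gave 0 to 1 (Rel, without Van replicate 1). Of the pathway and target genes, 13 were called with DESeq2, 4 without a filter on low counts, 4 with at least 10 counts in every library, 0 with limma on log2(FPKM + 1) values and 0 to 0 with a mouse left out. Over all identifiers, 322 were called, against 962 with DESeq2, 40 with limma on log2(FPKM + 1) values, 64 on log2(FPKM + 0.1) values, and 21 to 136 with a mouse left out, so that the fits with fewer mice called fewer genes throughout. The share of calls higher in Van was 54.0%, 65.0% and 62.5% in the limma fits, 90.9% of 22 calls without Con replicate 3 and 85.7% of 21 calls without Van replicate 2. The inhibitor to subunit ratio was higher in Van by 0.0698 (0.0537 to 0.0851 with a mouse left out), and by 0.192 with Nfkbiz and Tnfaip3 added. With a subunit left out of the sum, an alternative chosen after seeing the data, it was higher by 0.0174 for Rel, 0.113 for Nfkb1 and 0.126 for Nfkb2, and it moved by less than the spread between mice for Rela and Relb.

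The sign of Nfkbib turned on the FPKM scale (-0.0887 with a pseudocount of 1 and -0.0908 with 0.1), that of Tax1bp1 with library size alone (0.0028) and without a filter (0.0027), and that of Bcl3 with at least 10 counts in every library (-0.00046), on the fragment scale (-0.00398) and on the FPKM scale (-0.0291 and -0.0296). The cause was not tested. With a mouse left out, the log2 fold change ranged from -0.0212 to 0.10 for Rela, -0.0851 to 0.14 for Nfkbia, -0.10 to 0.13 for Nfkbib, -0.15 to 0.26 for Tnfaip3, -0.13 to 0.0328 for Rnf11, -0.0273 to 0.0361 for Tax1bp1, -0.11 to 0.17 for Bcl3, -0.16 to 0.31 for Tnf and -0.67 to 0.11 for Il6. Rel, Relb, Nfkb1, Nfkb2, Nfkbie and Nfkbiz kept their sign under all 16 alternatives, but not their size. With a mouse left out, Relb ranged from -0.15 to -0.0012 and Nfkbie from -0.21 to -0.0067, each nearest 0 without Con replicate 1. Nfkb2 ranged from 0.079 (without Con replicate 2) to 0.22, Nfkb1 from -0.11 to -0.056, Rel from -0.71 to -0.24 and Nfkbiz from 0.16 to 0.40. Nfkbid was at 0.027 without Con replicate 2 and at 0.42 with replicate 1 of Con left out instead, and Il1b ranged from -0.27 (without Van replicate 1) to -0.056 (without Con replicate 1). Leaving out a mouse also moved Sharpin (-0.15 to -0.015), Itch (-0.35 to -0.14), Tnip1 (0.067 to 0.21), Tnip3 (-0.74 to -0.35), Chuk (-0.22 to -0.096), Ikbkb (0.057 to 0.12) and Skp1a (0.057 to 0.17) by over 1.5 times. The low ends in size came without Con replicate 1 for Sharpin, Con replicate 2 for Itch, Con replicate 3 for Skp1a, Van replicate 1 for Tnip1 and Ikbkb, Van replicate 2 for Chuk and Van replicate 3 for Tnip3. With limma on log2(FPKM + 1), Tnip3 was at -0.21.

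Replicate numbers are shared by the groups but no source says that they pair mice, and the deviations of same-numbered mice had correlations of 0.0253, -0.0019 and -0.0726, so that not every mouse correlated best with its own number. With the replicate block, 110 identifiers, 1 pathway gene and 0 of the 10 genes were called. The pathway gene was Vcam1 (named after its value was seen), and the calls of Tnfrsf11a and Clec4e were lost (edgeR adjusted p = 0.108 and 0.0898). The adjusted p of Rel from edgeR was 0.196.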
